A study of Mus musculus with 6 samples.

Results

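ATF4 and CHOP, the product of Ddit3, are transcription factors of the integrated stress response, and REDD1, the product of Ddit4, is a stress-induced brake on the growth-promoting kinase complex mTORC1. The 10 genes described here are Atf4, Atf5, Ddit3, Ddit4, Trib3, Asns, Chac1, Sesn2, Cebpb and Cebpg, chosen by name as Atf4, genes of its response and Ddit4. They are 10 of the 22880 genes in the deposited table, and all 10 were among the 12014 genes tested. Their transcripts were compared in MC-38GFP tumor cells, mouse colon adenocarcinoma cells marked with green fluorescent protein (GFP), between 3 Mock and 3 HIF-1α-KD libraries. HIF-1α is the oxygen-sensitive subunit of the hypoxia-inducible factor HIF, and HIF-1α-KD cells carry a stable knock-down of it. Both groups were transduced with the lentiviral vector pLKO.1-puro, the Mock cells with a nontarget construct. Neither group had been passaged in vivo before injection into the cecum wall of C57BL/6 J mice. Living GFP-positive cells without CD45 (a leukocyte marker) or CD31 (an endothelial one) were sorted from the orthotopic tumors, whose other cells belonged to the mouse and carried no knock-down. The labels do not say whether a library came from a single tumor, and p-values therefore measure only the spread between these libraries. They give no age or sex of the mice.

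In the integrated stress response, kinases that sense unfolded protein, amino acid shortage, viral RNA or heme shortage phosphorylate the translation factor eIF2α. General protein synthesis then slows, while Atf4 mRNA is translated more through its upstream reading frames, so a large part of the control of ATF4 is not seen in its transcript level. ATF4 pairs with C/EBP proteins and binds composite elements in genes for amino acid synthesis and transport, and CHOP and TRIB3 act in its later phase. Ddit4 is known as a target of HIF-1 in hypoxia and also responds to ATF4, p53, glucocorticoids and energy shortage. In solid tumors, poorly perfused regions can engage both responses.

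The libraries held 19845864 to 30809363 reads on genes, with no gap in depth between the groups. Hif1a, the targeted gene, had 6914, 5424 and 4945 normalized counts in Mock against 697.3, 3142 and 1928 with the knock-down, so its remaining level differed among the HIF-1α-KD libraries, with HIF-1α-KD replicate 1 the lowest. A normalized count is the number of reads on a gene divided by one factor per library. Differences (log2 differences) are log2 fold changes of the normalized count plus 1, where a value below 0 stands for a lower level in HIF-1α-KD cells. They were tested with limma, and p-values were adjusted over all 12014 genes by the method of Benjamini and Hochberg. Among cell types that the gates should have removed, the leukocyte markers were not at 0. All 12 were in the table, and their summed FPKM ran from 138 to 191 in Mock and from 106 to 534 in HIF-1α-KD libraries. Of the 11 tested, 8 had log2 differences below 0 and 3 above, with a median of -0.25. HIF-1α-KD replicate 3 stood apart, with a list median of 1.27 relative to the Mock mean on the log2 scale, against -1.22 and -0.64 in HIF-1α-KD replicates 1 and 2. Cd74, a chaperone of antigen presentation, had the lowest p-value of the list and went against its median (log2 difference 2.46, limma adjusted p = 0.333, overlapping groups). The 8 endothelial markers summed to between 5.44 and 6.71 FPKM in Mock and between 3.98 and 5.57 FPKM in HIF-1α-KD libraries, and 3 of them could be tested. Cdh5, the cadherin of endothelial junctions, had a log2 difference of -0.84 (limma adjusted p = 0.294), whereas Pecam1 had 0.26 and Tek, an angiopoietin receptor, 1.26, both with overlapping groups (limma adjusted p = 0.83 and 0.484). The 9 fibroblast and pericyte markers summed to between 891 and 2583 FPKM in Mock and between 3013 and 5114 FPKM in HIF-1α-KD libraries, without overlap. Of these sums, Col1a1, a fibrillar collagen chain, made up 215.7 to 1471 FPKM in Mock and 2147 to 4222 FPKM in HIF-1α-KD libraries. The log2 difference was 1.99 for Col1a1, 1.42 for Cspg4, the NG2 proteoglycan, and 1.15 for Rgs5, a pericyte regulator of G protein signaling (limma adjusted p between 0.287 and 0.315), and without Mock replicate 1 it was 1.16, 0.85 and 0.88. The other 6 markers overlapped between the groups. Their log2 differences were -0.38 and -0.16 for Dcn and Lum, proteoglycans of the matrix, 0.035 and 0.59 for the receptor genes Pdgfra and Pdgfrb, 0.17 for the collagen gene Col1a2 and 0.33 for Acta2, smooth muscle actin. Of the 9, 7 lay above 0 and 4 were higher at p-values under 0.05 before adjustment, with a list median of 0.33. None of these leukocyte, endothelial, fibroblast and pericyte markers had 0 reads in all libraries. Ptprc, which encodes CD45, had between 1.27 and 1.59 FPKM in Mock and between 0.558 and 3.23 FPKM in HIF-1α-KD libraries, and Pecam1, which encodes CD31, between 0.555 and 1.13 FPKM and between 0.673 and 1.28 FPKM. The 8 epithelial markers summed to between 1.38 and 14.6 FPKM in Mock and between 1.65 and 3.13 FPKM in HIF-1α-KD libraries, and 5 were too low to be tested. Mock replicate 3 stood apart, with 190.9 normalized counts of Krt8, a keratin of simple epithelia, against 6.155 and 11.48 in Mock replicates 1 and 2 and 32.17, 15.59 and 8.086 with the knock-down. It was also the highest Mock library for 6 of the 10 genes described below. Epcam had at most 31 reads in a library, and Cdh1, epithelial cadherin, had a log2 difference of -0.74 (limma adjusted p = 0.515, and -0.42 without Mock replicate 3). These markers were thus low in all libraries for cells labelled as adenocarcinoma. In a sorted bulk sample, fewer cells of a type and less RNA per cell cannot be told apart. What part residual other cells had in the values below was not tested.

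Of the 10 genes, Ddit4 and Cebpb were lower in each HIF-1α-KD library than in each Mock library. Sesn2 and Atf5 were higher on average, with overlapping groups, and of these 2 only Sesn2 had an unadjusted limma p-value under 0.05. Atf4 itself had nearly the same mean in both groups. Ddit4 had 53.9% and Cebpb 65.9% of the Mock mean, while Sesn2 had 138% and Atf5 161% of it. None of the 10 (0 of 10) had an adjusted p-value under 0.05 in limma, where 0.391% of all genes tested had one (0.00832% higher and 0.383% lower), or in the quasi-likelihood test of edgeR. The Wald test of DESeq2 called 1 of the 10, Ddit4, and 2.36% of all genes. Before adjustment, at p-values under 0.05, limma and edgeR each found 1 of the 10 higher and 2 lower (DESeq2 2 and 2). In limma this stands beside 7.04% and 5.69% of all genes tested (12.7% together). Over all genes these were 846 higher and 683 lower, and scaling by library size instead of the deposited factors gave 1085 and 524. For 2 of the 10 the libraries of one group all lay below those of the other, a share close to the 19.2% of all genes tested. Before adjustment, at p-values under 0.05 and a fold of at least 1.5, 0 of the 10 were higher, where 4.02% of all genes tested were, and 1 was lower, Ddit4, where 3.46% were (7.48% in both directions). Whatever the p-value, 7 of the 10 lay above 0, beside 52.7% of all genes tested, and 3 below, beside 47.3%. The median log2 difference of the 10 was 0.16, beside 0.021 for all genes tested.

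**Figure D1:**
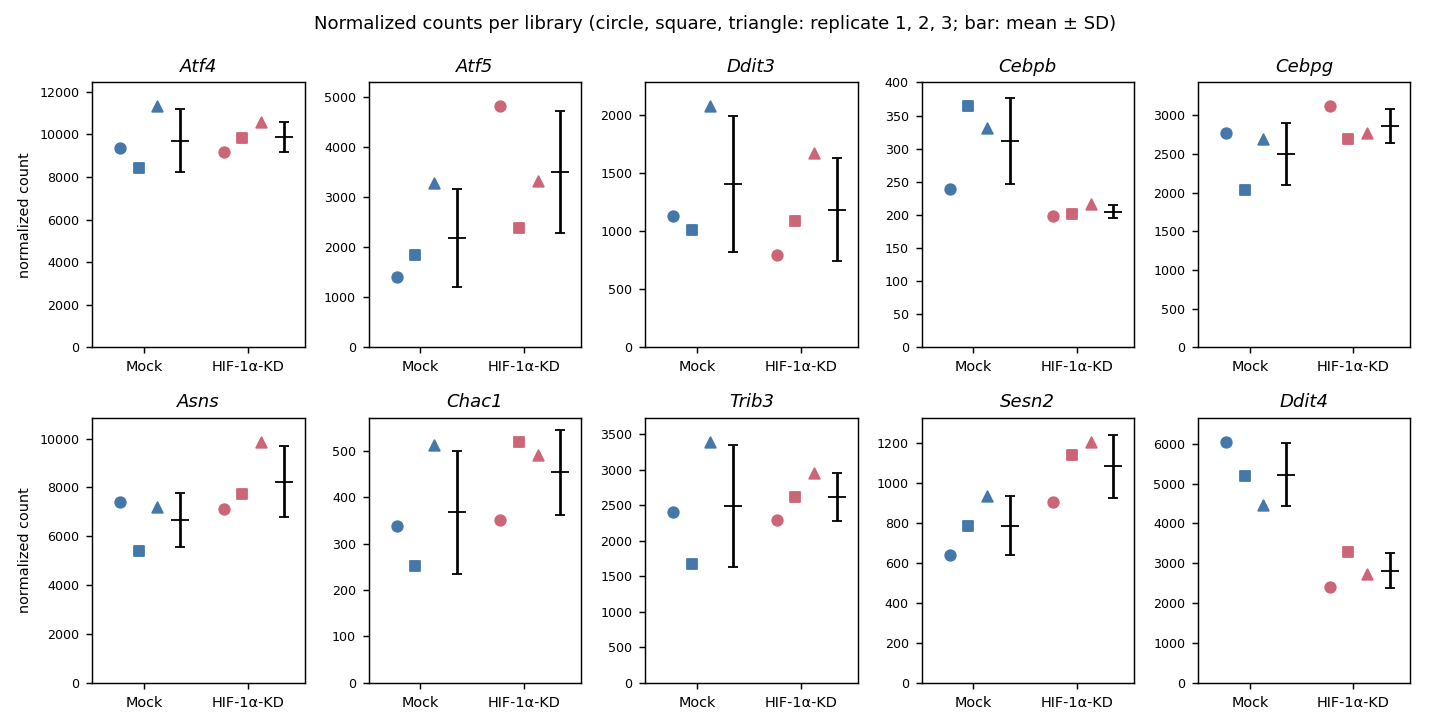
Normalized count (linear axis from 0) of each of the 10 genes in the 3 Mock libraries (blue) and the 3 HIF-1α-KD libraries (red), with replicate 1 as a circle, 2 as a square and 3 as a triangle, and the mean ± SD in black. The 3 HIF-1α-KD libraries of Ddit4 (2411 to 3293) sit below the 3 Mock libraries (4452 to 6046), and the same holds for Cebpb, while the groups overlap in the other 8 panels.

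Ddit4 (ENSMUSG00000020108, GRCm38 chromosome 10, 59949669 to 59951834, minus strand) encodes REDD1, which restrains mTORC1 through the TSC complex. Its normalized counts were 6046, 5177 and 4452 for Mock, compared with 2411, 3293 and 2741 under knock-down. The lowest Mock library lay well above the highest HIF-1α-KD library. Means and SDs over 3 libraries were 5225 ± 798 for Mock cells and 2815 ± 446 after knock-down. The log2 difference was -0.89 (standard error 0.17, 95% interval -1.28 to -0.50, limma adjusted p = 0.109), which is a fitted Mock level 1.86 times that of HIF-1α-KD cells. By unadjusted p-value Ddit4 was 68 of 12014 genes. The unadjusted p-value stayed under 0.05 in 15 of 15 alternative analyses, between 4.18e-06 and 0.00316, and the adjusted p-value ran from 0.000612 with DESeq2 to 0.314 without Mock replicate 1. The unadjusted limma p-value was 0.000635, and a two-sided exact permutation test of the 3 libraries against 3 gave p = 0.1, the smallest value it allows. Within each group the libraries stood in the same order for Ddit4 and Hif1a, with HIF-1α-KD replicate 1 the lowest and HIF-1α-KD replicate 2 the highest after knock-down, which is a description of 3 libraries in each group.

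The promoter window of Ddit4 is shown because this gene had the lowest p-value of the 10 and HIF is known to bind near its start. The windows come from RefSeq on GRCm38.p6, hold 250 bases before and 50 after an annotated start, matched by symbol for 10 of 10 genes (11 windows, 2 of them for Atf5) and are printed without their last 20 bases, 5′ to 3′ on the strand of the gene. HIF binds cores of the letters ACGTG or GCGTG, searched on both strands. ATF4 with a C/EBP partner binds composites searched here as TGATGNAA, again on both strands. Capitals mark these matches, also where the letters are the reverse complement, and no HIF core overlapped a composite in the 11 windows. The printed part of the Ddit4 window is chr10:59951741-59952020, minus strand. It holds ACGTG from -187 to -183 and GCGTG from -115 to -111, counted from the start, and no composite.
Ddit4: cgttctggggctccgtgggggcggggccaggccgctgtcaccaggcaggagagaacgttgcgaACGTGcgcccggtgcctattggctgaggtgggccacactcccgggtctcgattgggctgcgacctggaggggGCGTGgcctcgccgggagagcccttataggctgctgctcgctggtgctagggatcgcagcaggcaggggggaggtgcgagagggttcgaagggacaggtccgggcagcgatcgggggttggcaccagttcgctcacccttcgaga
At least one HIF core was found in the windows of 8 of the 10 genes, and in 43.8% of all 32851 windows. Atf5 and Sesn2 had none. ACGTG alone was found for Ddit4, Asns and Ddit3, and in 19.6% of all windows. These matches are letters in a window, and binding was not measured.

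The 3 windows that hold the composite, found in 3.97% of all windows, are shown because they belong to 3 genes of amino acid and feedback control that Ddit4 did not resemble across libraries. The Asns window is chr6:7693180-7693459, minus strand, with TGATGAAA from -23 to -16. The Chac1 window is chr2:119350992-119351271, plus strand, with TTGCATCA, the composite read on the other strand, from -193 to -186. The Trib3 window is chr2:152344031-152344310, minus strand, with TTACATCA from 15 to 22.
Asns: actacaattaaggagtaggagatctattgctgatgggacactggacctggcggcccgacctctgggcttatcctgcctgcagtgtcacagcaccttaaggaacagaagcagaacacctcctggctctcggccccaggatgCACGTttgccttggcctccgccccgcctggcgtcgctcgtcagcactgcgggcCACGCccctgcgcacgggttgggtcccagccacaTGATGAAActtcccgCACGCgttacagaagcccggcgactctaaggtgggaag
Chac1: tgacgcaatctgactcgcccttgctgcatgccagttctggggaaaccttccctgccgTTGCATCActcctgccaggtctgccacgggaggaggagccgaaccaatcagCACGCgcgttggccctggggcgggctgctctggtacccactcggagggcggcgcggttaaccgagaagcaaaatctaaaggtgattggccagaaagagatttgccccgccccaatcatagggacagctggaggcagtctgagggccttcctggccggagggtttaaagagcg
Trib3: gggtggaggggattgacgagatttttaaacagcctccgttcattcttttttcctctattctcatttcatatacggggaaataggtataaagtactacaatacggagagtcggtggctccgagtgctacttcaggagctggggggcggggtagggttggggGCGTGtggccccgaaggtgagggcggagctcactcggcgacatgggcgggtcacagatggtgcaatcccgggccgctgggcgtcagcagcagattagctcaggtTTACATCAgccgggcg
The groups overlapped for each of these 3 genes, whose values are given below.

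Of the transcription factors, Atf4 (ENSMUSG00000042406, chromosome 15, 80255184 to 80257541, plus strand) had 9366, 8410 and 11310 normalized counts in Mock against 9187, 9843 and 10570 with the knock-down. The HIF-1α-KD values lay within the range of the Mock values. The means were 9695 ± 1478 (SD, n = 3) and 9867 ± 692 (SD, n = 3), and the log2 difference was 0.034 with a 95% interval from -0.31 to 0.38 (limma adjusted p = 0.946). The interval leaves room for a modest difference either way, and its sign turned without Mock replicate 2 (-0.063) or HIF-1α-KD replicate 3 (-0.017). Translation of Atf4 was not measured.

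Atf5 (ENSMUSG00000038539, chromosome 7, 44812256 to 44816658, minus strand) encodes a factor close to ATF4 that also acts in mitochondrial stress. It had 1408, 1847 and 3278 normalized counts in Mock against 4813, 2392 and 3328 with the knock-down. It had the largest log2 difference above 0 of the 10 genes, 0.72 (standard error 0.34, 95% interval -0.042 to 1.49, limma adjusted p = 0.414). Mock replicate 3 overlapped the HIF-1α-KD libraries, and without it the log2 difference was 1.06 (limma adjusted p = 0.326). It was 0.97 without HIF-1α-KD replicate 2, but 0.45 without Mock replicate 1 and 0.47 without HIF-1α-KD replicate 1 (limma adjusted p = 0.768 and 0.614). In the annotation, 82 of the 1993 exonic bases of Atf5 lie opposite exons of Nup62 and Il4i1, and whether the counting used strand is not given in the sources used here.

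Ddit3 (ENSMUSG00000025408, chromosome 10, 127290774 to 127296288, plus strand) encodes CHOP, which promotes cell death in prolonged stress. Its 1131, 1011 and 2076 normalized counts in Mock against 798.7, 1090 and 1671 with the knock-down overlapped. In both groups replicate 3 was the highest. The log2 difference was -0.24 (95% interval -0.98 to 0.51, limma adjusted p = 0.805). It turned to 0.084 without Mock replicate 3 and to 0.017 without HIF-1α-KD replicate 1, and was -0.52 without HIF-1α-KD replicate 3.

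Cebpb (ENSMUSG00000056501, chromosome 2, 167688915 to 167690418, plus strand) encodes C/EBPβ, an inflammatory and stress-responsive partner of ATF4. It had 238.8, 363.7 and 331 normalized counts in Mock against 197.9, 201.4 and 216 with the knock-down. The HIF-1α-KD libraries lay close together and below all Mock libraries, of which replicate 1 was the nearest. Means and SDs over 3 libraries were 311 ± 64.8 for Mock cells and 205 ± 9.60 after knock-down, a log2 difference of -0.58 (standard error 0.22, 95% interval -1.08 to -0.078, limma adjusted p = 0.345). Exons of Tmem189 on the opposite strand cover 20.7% of the exonic bases of Cebpb. Tmem189 had a log2 difference of 0.012 (limma adjusted p = 0.982).

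Cebpg (ENSMUSG00000056216, chromosome 7, 35046422 to 35056573, minus strand) encodes C/EBPγ, a dimer partner of ATF4 in amino acid and redox genes. It had 2775, 2035 and 2694 normalized counts in Mock against 3115, 2692 and 2775 with the knock-down. Mock replicate 2 was the lowest library and the rest overlapped. The log2 difference was 0.20 (95% interval -0.16 to 0.57, limma adjusted p = 0.632). It was 0.062 without Mock replicate 2.

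Among the metabolic targets, Asns (ENSMUSG00000029752, chromosome 6, 7675169 to 7693254, minus strand) encodes asparagine synthetase, a standard readout of ATF4. Its normalized counts were 7417, 5403 and 7192 for Mock, compared with 7114, 7732 and 9865 under knock-down. Only HIF-1α-KD replicate 1 lay within the Mock range. The log2 difference was 0.30 (95% interval -0.11 to 0.72, limma adjusted p = 0.528), and it was 0.16 without Mock replicate 2 and 0.17 without HIF-1α-KD replicate 3. Chac1 (ENSMUSG00000027313, chromosome 2, 119351229 to 119354381, plus strand) encodes an enzyme that degrades glutathione. With 338.5, 252.6 and 512.2 normalized counts in Mock against 349.9, 519.2 and 490.9 with the knock-down, the groups overlapped over most of their range. Its log2 difference was 0.34 (95% interval -0.30 to 0.99, limma adjusted p = 0.654), and it ran from 0.10 without Mock replicate 2 to 0.61 without Mock replicate 3.

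Trib3 and Sesn2 are feedback and growth regulators. Trib3 (ENSMUSG00000032715, chromosome 2, 152337422 to 152344032, minus strand) encodes a pseudokinase that binds ATF4 and AKT. Its normalized counts of 2405, 1673 and 3393 in Mock enclosed the 2288, 2615 and 2961 found after knock-down, with a log2 difference of 0.13 (95% interval -0.43 to 0.68, limma adjusted p = 0.858), which turned to -0.13 without Mock replicate 2. Sesn2 (ENSMUSG00000028893, chromosome 4, 132492032 to 132510501, minus strand) encodes sestrin 2, a leucine sensor that, like REDD1, restrains mTORC1. It had 642.6, 783.8 and 937.4 normalized counts in Mock against 905.7, 1140 and 1207 with the knock-down. The groups overlapped by a single pair, HIF-1α-KD replicate 1 below Mock replicate 3. Means and SDs over 3 libraries were 788 ± 147 for Mock cells and 1084 ± 158 after knock-down, a log2 difference of 0.47 (standard error 0.19, 95% interval 0.027 to 0.91, limma adjusted p = 0.381).

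How many of the 10 genes had an unadjusted p-value under 0.05 depended on single libraries. It was 1 (Ddit4) without Mock replicate 2 and 4 (Atf5, Ddit4, Chac1 and Sesn2) without Mock replicate 3, against 3 with all libraries and 2 when any one of the other 4 libraries was left out. Of all genes tested, 8.42%, 12.9% and 11.8% had such a p-value without Mock replicate 1, 2 and 3, and 11.9%, 8.78% and 11.5% without HIF-1α-KD replicate 1, 2 and 3. Under the 15 alternative analyses Ddit4 was under that limit in 15, Sesn2 and Cebpb in 10 each, Atf5 in 4 and Chac1 in 1.

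**Figure D2:**
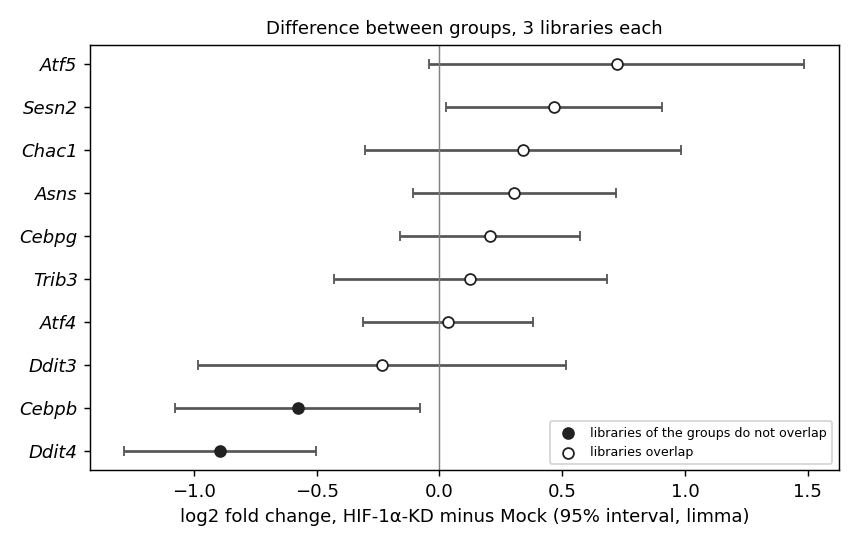
Log2 difference (HIF-1α-KD minus Mock, x axis) of the 10 genes with its 95% interval from limma, filled where the libraries of the 2 groups do not overlap. The intervals of Ddit4 (-1.28 to -0.50), Cebpb (-1.08 to -0.078) and Sesn2 (0.027 to 0.91) do not include 0 before adjustment over all genes, and that of Atf4 is centred near 0.

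Levels of different genes were compared per length, as FPKM (reads per length and library total), which rest on the transcript length given by the authors, here between 820 bases for Ddit3 and 3480 bases for Sesn2. In Mock cells the highest level was that of Asns, 269 ± 35.6 FPKM (SD, n = 3), followed by Atf4 at 224 ± 28.9 FPKM (SD, n = 3). These neighbours overlapped between libraries. Ddit4 came next at 124 ± 18.6 FPKM (SD, n = 3), below every Mock library of Atf4, higher than 92.2% of the genes tested and overlapping Trib3. Trib3 at 93.2 ± 30.1 FPKM, Ddit3 at 68.1 ± 26.9 FPKM, Atf5 at 48.7 ± 21.2 FPKM and Cebpg at 36.0 ± 4.64 FPKM (each SD, n = 3) formed a run in which each neighbour overlapped the next. Sesn2, Chac1 and Cebpb stood apart below, at 9.04 ± 1.70, 8.90 ± 3.00 and 8.32 ± 1.97 FPKM (each SD, n = 3), and did not differ from each other beyond their spread. In HIF-1α-KD cells Ddit4, at 69.7 ± 12.2 FPKM (SD, n = 3), held rank 5 instead of 3, and Atf5, at 81.5 ± 26.4 FPKM (SD, n = 3), rank 4 instead of 6. Ddit4 overlapped Trib3 in Mock cells but lay wholly below it in HIF-1α-KD cells (Trib3 87.1 to 117.7 FPKM). Ddit4 lay wholly above Atf5 in Mock cells (Atf5 30.8 to 72.1 FPKM) but overlapped it in HIF-1α-KD cells. On this scale, which divides by the total reads of a library, the groups were also apart for Cebpg, from 30.7 to 39.2 FPKM in Mock and from 40.99 to 45.55 FPKM in HIF-1α-KD cells, whereas its normalized counts overlapped.

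**Figure D3:**
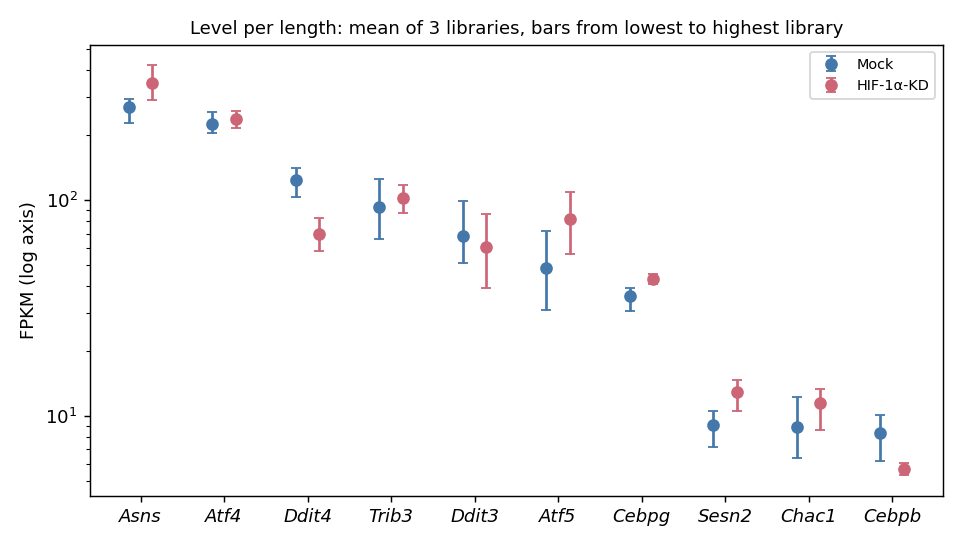
Level per length (FPKM, log axis) of the 10 genes in Mock (blue) and HIF-1α-KD (red) cells, as the mean of 3 libraries with bars from the lowest to the highest library, ordered by the Mock mean. The bars of Ddit4 are apart, from 103.8 to 140.3 FPKM in Mock and from 57.9 to 82.4 FPKM in HIF-1α-KD cells, as are those of Cebpb and Cebpg, while those of the other 7 genes overlap.

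Relative to Atf4 in the same library, the FPKM of Ddit4 was 0.661, 0.630 and 0.403 in Mock against 0.269, 0.342 and 0.266 with the knock-down, without overlap (exact permutation test, two-sided, p = 0.1, the smallest it allows). The FPKM of Sesn2 relative to Atf4 was 0.0339, 0.0461 and 0.0410 in Mock against 0.0487, 0.0573 and 0.0565 with the knock-down, which did not overlap either (exact permutation p = 0.1). For the pair of mTORC1 inhibitors, the FPKM of Ddit4 was 14.3 ± 4.86 times that of Sesn2 in Mock and 5.40 ± 0.646 times in HIF-1α-KD cells (SD, n = 3, exact permutation p = 0.1). This ratio joins a lower and a higher gene already described, so it is not separate evidence. The same holds for Ddit4 over Atf4, as Atf4 had nearly the same mean in both groups. The ratios of Asns, Ddit3, Trib3 and Atf5 to Atf4 overlapped between the groups. A total of 7 ratios were computed, and adjustment over them cannot bring an exact p-value under 0.1.

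Libraries of one group differed in these genes more in some than in others. The SD within groups on the log2 scale was 0.17 for Atf4, 0.22 for Ddit4 and 0.23 for Cebpb, against a median of 0.25 over all genes tested, while it was 0.55 for Ddit3 and 0.57 for Atf5, higher than in 85.9% and 86.7% of genes. Mock replicate 3 was the highest Mock library for 6 of the 10 genes (Atf4, Atf5, Ddit3, Trib3, Chac1 and Sesn2), and Mock replicate 2 was the lowest for 6 (Atf4, Ddit3, Trib3, Asns, Chac1 and Cebpg). HIF-1α-KD replicate 1 was the lowest HIF-1α-KD library for 8 of the 10 genes and the highest for the other 2, Atf5 and Cebpg. HIF-1α-KD replicate 3, which stood apart in leukocyte markers, was the highest HIF-1α-KD library for 6 (Atf4, Ddit3, Trib3, Asns, Sesn2 and Cebpb). It was the lowest for 0. Trib3 and Chac1 had the most similar pattern of any pair of the 10 genes, with a root mean square difference of 0.16 on the log2 scale over the 6 libraries after centring, followed by Atf4 and Cebpg (0.18). Atf5 and Ddit4 were the least similar pair (1.03).

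**Figure D4:**
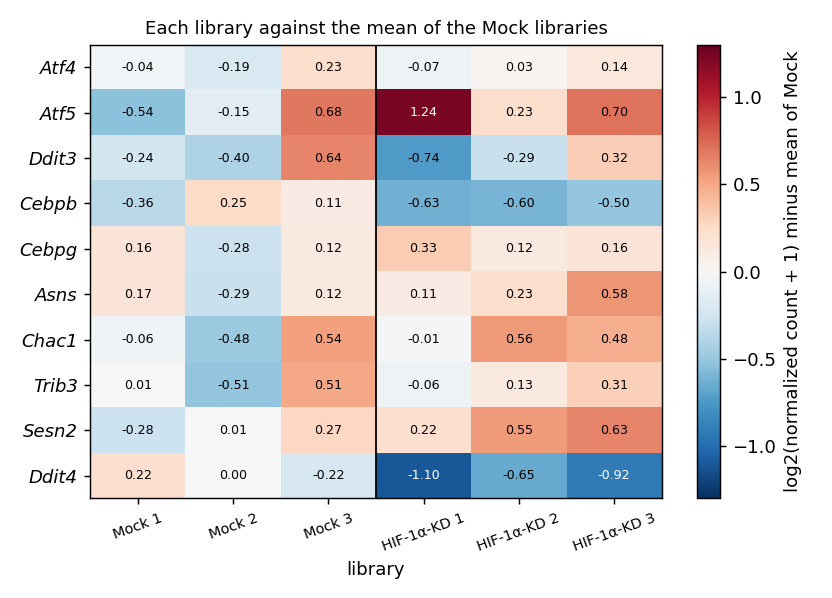
Log2 of the normalized count plus 1 in each of the 6 libraries (columns) minus the mean of the Mock libraries, for each of the 10 genes (rows), red above and blue below. Ddit4 is between -1.10 and -0.65 in the HIF-1α-KD libraries and Cebpb between -0.63 and -0.50, whereas Chac1 and Trib3 have Mock replicate 2 low and Mock replicate 3 high.

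Among all 12014 genes, the 5 whose centred pattern over the 6 libraries was most like that of Ddit4 were Pik3ip1, a negative regulator of PI3 kinase (root mean square difference 0.10 on the log2 scale), Nmrk1, a nicotinamide riboside kinase (0.10), Cda, cytidine deaminase (0.11), Zfp677, a zinc finger gene (0.11), and Map2k1, the kinase MEK1 (0.11). The median over all genes was 0.56. Their log2 differences lay between -0.86 for Cda and -0.71 for Nmrk1, at adjusted p-values of limma from 0.139 to 0.386. The member nearest to Ddit4 was Cebpb (0.36, at place 1087). For Asns the 3 most alike were Dnhd1, a dynein heavy chain domain gene (0.050), Wdr75, a factor of ribosome biogenesis (0.086), and Gm14418 (0.086), with log2 differences of 0.34, 0.32 and 0.27 (limma adjusted p between 0.409 and 0.694).

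The wider ATF4 program was read from 41 other genes, of which 39 were tested. In limma 0 of 39 passed an adjusted p-value of 0.05, and 6 were higher and 1 lower at p-values under 0.05 before adjustment. In edgeR and DESeq2 the adjusted count was 0 as well, with 5 higher and 1 lower before adjustment in each. The median log2 difference was 0.19, beside 0.021 for all genes. For this and the lists below, 7.04% of all genes tested in limma were higher and 5.69% lower at p-values under 0.05 before adjustment. After adjustment these shares were 0.00832% and 0.383%. Cars and Tars, which load cysteine and threonine onto their transfer RNAs, had log2 differences of 0.60 (limma adjusted p = 0.25) and 0.47 (limma adjusted p = 0.275). Eif4ebp1 encodes 4E-BP1, a repressor of cap-dependent translation that mTORC1 inactivates, and its log2 difference was -0.49 (limma adjusted p = 0.275), with 5444, 5423 and 6348 normalized counts in Mock against 4588, 3567 and 4134 with the knock-down. Each of these 3, which had the lowest p-values of the list, had its groups apart. Of the 39 genes, 11 did, beside 19.2% of all genes tested.

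Upstream of ATF4, 16 genes of the eIF2α kinases, phosphatases and eIF2B were tested. In limma, edgeR or DESeq2, 0 of 16 had an adjusted p-value under 0.05. Each tool found 2 higher and 1 lower at p-values under 0.05 before adjustment. Eif2ak3, which encodes PERK, the kinase of the endoplasmic reticulum, had 554, 729.2 and 542.4 normalized counts in Mock against 1042, 990.4 and 838.6 with the knock-down, a log2 difference of 0.66 (limma adjusted p = 0.245). Eif2ak4, which encodes the amino acid sensor GCN2, had 382.9, 661.3 and 520.6 in Mock against 945.9, 703.9 and 805.1 with the knock-down, a log2 difference of 0.67 (limma adjusted p = 0.312). Ppp1r15b, which encodes CReP, a subunit of the eIF2α phosphatase, had a log2 difference of -0.40 (limma adjusted p = 0.34). None of these 3, which had the lowest p-values of the list, overlapped between the groups. Of the 16 genes, 4 had groups apart, beside 19.2% of all genes tested. Kinase activity was not measured.

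The IRE1 and ATF6 arms of the unfolded protein response were covered by 21 genes, all tested. In limma, edgeR and DESeq2 alike, 0 of 21 passed an adjusted p-value of 0.05, with 3 higher and 1 lower at p-values under 0.05 before adjustment. In limma 19 log2 differences lay above 0, beside 52.7% of all genes tested, and the median was 0.25, beside 0.021. Pdia4, a disulfide isomerase, had 0.51 (limma adjusted p = 0.271), Sel1l, a subunit of the degradation machinery, 0.41 (limma adjusted p = 0.32) and Hsp90b1, the chaperone GRP94, 0.42 (limma adjusted p = 0.359) as log2 difference. The one lower at a p-value under 0.05 before adjustment was Dnajb9, a chaperone of the endoplasmic reticulum (named after its value was seen), whose groups were apart, with a log2 difference of -0.65 (limma adjusted p = 0.381), the farthest from 0 of the 21. Of relatives of the C/EBP and CREB factors, 14 were tested, with 0 under an adjusted p-value of 0.05 in any of the 3 tools and a median of -0.060 in limma. At p-values under 0.05 before adjustment, 3 were higher and 1 lower in limma and DESeq2, and 2 higher and 0 lower in edgeR. They included Cebpz, which acts in ribosome assembly (0.50, limma adjusted p = 0.303), Jdp2, a repressor of the AP-1 family (0.48, limma adjusted p = 0.372), and Nfil3, a repressor with a basic leucine zipper (-0.76, limma adjusted p = 0.382, overlapping groups), as log2 differences. That of Nfil3 was -0.44 without HIF-1α-KD replicate 1 and -1.11 without HIF-1α-KD replicate 3.

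On the side of mTORC1, 22 further genes were tested. In limma 0 of 22 passed an adjusted p-value of 0.05, and 0 were higher and 2 lower at p-values under 0.05 before adjustment (0 and 3 in edgeR and in DESeq2). After adjustment edgeR called 0 and DESeq2 1, Txnip. The lower ones in limma were Eif4ebp1, given above, and Txnip, an inhibitor of glucose uptake and a binding partner of REDD1. Txnip had 9037, 7574 and 4654 normalized counts in Mock against 2563, 4167 and 4469 with the knock-down, which did not overlap, and a log2 difference of -0.91 (standard error 0.28, limma adjusted p = 0.287). The median of the 22 genes was 0.024. Ddit4l, the paralog of Ddit4, had 0 reads in all libraries.

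Known inducers of Ddit4 were followed through lists of their other targets. Of 18 HIF-1 targets, 10 were lower and 0 higher at a limma adjusted p-value under 0.05, 17 were lower at p-values under 0.05 before adjustment, and the median log2 difference was -1.56. Bnip3, a mitophagy receptor, fell by 2.70 on the log2 scale, Egln1, the oxygen sensor PHD2, by 1.65 and Mxi1, an antagonist of MYC, by 1.33 (limma adjusted p between 0.0205 and 0.0242). The log2 difference of Ddit4, -0.89, lay within the range of the list, with 5 of the 18 targets nearer to 0 (Vegfa, Pfkfb3, P4ha1, P4ha2 and Kdm3a, named after their values were seen) and 13 farther from it. Of 12 p53 targets, 1 was lower at a limma adjusted p-value under 0.05, Cdkn1a, the cell cycle inhibitor p21, which fell by 1.61 on the log2 scale (adjusted p = 0.0245), and the median was -0.29. Before adjustment, at p-values under 0.05, 1 was higher, Phlda3, a repressor of AKT (log2 difference 0.44, limma adjusted p = 0.384), and 3 were lower, among them Btg2, an antiproliferative gene that is also in the early response list and whose groups overlapped (-1.49, limma adjusted p = 0.315, and -0.91 without HIF-1α-KD replicate 1). Of 8 tested genes induced by glucocorticoids, 2 were lower at a limma adjusted p-value under 0.05 and 5 at an unadjusted one, with a median of -0.82. After adjustment edgeR called 2 and DESeq2 4 of these 8 lower, and they called 10 and 12 of the 18 HIF-1 targets and 1 each of the 12 p53 targets. Mt2, a metallothionein, fell by 1.74 and Per1, a clock gene, by 1.73 on the log2 scale (limma adjusted p = 0.0281 and 0.0446). Of the 8, 4 had groups apart. Fkbp5, Tsc22d3, Klf9 and Errfi1 (named after their values were seen) overlapped. Their log2 differences were -0.095, -0.57, -0.75 and -0.24 (limma adjusted p between 0.381 and 0.924).

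The values of Ddit4 and Cebpb stand beside lower levels of genes that respond within minutes to stimuli, including tissue dissociation. Of 15 such genes, 1 was lower at a limma adjusted p-value under 0.05, Ier3, an early response gene of cell survival, which fell by 2.07 on the log2 scale (adjusted p = 0.0242), and 11 were lower at an unadjusted one. DESeq2 called 7 of the 15 lower after adjustment and edgeR 1. Dusp1, a phosphatase of stress kinases that is also in the glucocorticoid list, had a log2 difference of -2.51 (limma adjusted p = 0.142), and Ier2, an early response nuclear factor, of -1.45 (limma adjusted p = 0.119). All 15 had log2 differences below 0, with a median of -1.45, and their summed FPKM ran from 917 to 1463 in Mock and from 160 to 577 in HIF-1α-KD libraries. Relative to the mean of Mock, the median of these genes was -2.07, -1.14 and -0.92 on the log2 scale in HIF-1α-KD replicates 1, 2 and 3, while Ddit4 was at -1.10, -0.65 and -0.92 and Cebpb at -0.63, -0.60 and -0.50. HIF-1α-KD replicate 1 was the lowest in all 3, as it was for 8 of the 10 genes. In Mock replicates 1, 2 and 3 the median of the early response genes was -0.20, 0.32 and -0.13, where Cebpb was at -0.36, 0.25 and 0.11, in the same order, and Ddit4 at 0.22, -0.0021 and -0.22, in another order. Cebpb also had the order of the early response genes in the HIF-1α-KD libraries, and Ddit4 did not. HIF-1α-KD replicates 1 and 2 barely differed for Cebpb (197.9 and 201.4 normalized counts). These orders are a description of 3 libraries in each group. The part of this response in the values of Ddit4 and Cebpb was not tested. Of the listed genes outside the 10, 7 stand in more than 1 list, so the lists are not independent.

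**Figure D5:**
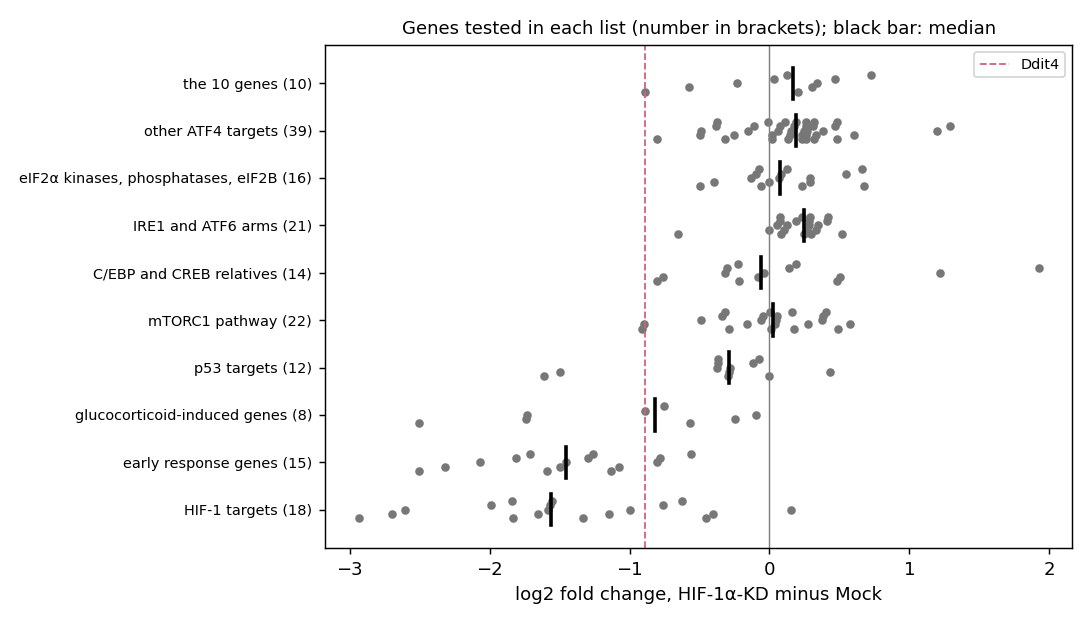
Log2 difference (HIF-1α-KD minus Mock, x axis) of every tested gene (grey points) in each list (rows, number tested in brackets), with the median as a black bar and the value of Ddit4 (-0.89) as a dashed line. The median of the mTORC1 pathway (0.024) is close to that of all genes tested (0.021), those of the other ATF4 targets (0.19) and the IRE1 and ATF6 arms (0.25) lie above it, and those of the HIF-1 targets (-1.56), early response genes (-1.45) and glucocorticoid-induced genes (-0.82) lie below 0.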

How the data were processed

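Libraries were grouped by the knockdown and title in their labels. Per the paper's methods, the authors trimmed single-end reads of polyadenylated RNA and ran STAR, then featureCounts, then DESeq2. The submitters' notes name STAR, edgeR and GRCm38, whereas the methods name GRCh38. The table carries mouse Ensembl identifiers. The authors deposited normalized counts (a signal: reads divided by a factor specific to the library). The authors also deposited FPKM (reads per length and library total), a log2 ratio, a p-value and a false discovery rate of their own comparison (not used), and the GC fraction and length of each transcript. Reads were recovered by undoing the factor, which gave whole numbers (within 0.1) for 100% of entries below 300 reads.

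Genes were kept with filterByExpr of edgeR 4.0.16 (minimum count of 10). Log2 values (normalized count plus 1) were fitted by condition with limma 3.58.1 (mean-variance trend, two-sided, Benjamini-Hochberg). Alternatives were edgeR and DESeq2 1.42.0 on recovered reads, limma without trend, TMM or library size scaling, no filter, pseudocounts of 0.1 and 10, a block for replicate number and leaving out each library. The tests were run on simulated data with the mean levels of these 12014 genes. Of 200 genes changed 2-fold, limma found 18.5% and DESeq2 57.5%, with 2.63% and 14.8% of their calls false. The spread between simulated libraries was set in advance and not estimated from these data. These shares therefore do not give the power or the false calls in the real comparison. Replicate libraries differed beyond read sampling (chi-square per degree of freedom from 30.6 to 97.6). Positions are those of GENCODE M21. Named are the 10 genes, Hif1a, up to 3 genes of each list at the lowest p-values under 0.05 (1 where none was), the 5 genes most like Ddit4 and the 3 most like Asns. Tmem189, Nup62, Il4i1, Ddit4l and marker genes beyond that rule were named after their values were seen. The members and lists were chosen with earlier results of these data known. R 4.3.3, Python 3.11.15, pandas 2.3.3 and matplotlib 3.10.9 were used.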

Additional observations from a re-analysis of the deposited data

How the results depend on the processing

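The lowest of the 10 genes, Cebpb, had at least 168 reads in each library, and the SD within groups of the 10 ran from 0.17 to 0.57 on the log2 scale with 3 libraries in a group. Ddit4 was below 0 under all 15 alternatives, with a log2 fold change between -1.01 and -0.78 with each library left out, and only DESeq2 took it under an adjusted p-value of 0.05 (-0.91, adjusted p = 0.000612). Genes lower and higher at an adjusted p-value under 0.05 were 46 and 1 with all libraries, 187 and 96 with DESeq2, 1 and 0 in limma without trend (1397 at an unadjusted p-value under 0.05), 47 and 0 with edgeR, 0 and 0 with the replicate block (1324 at an unadjusted p-value under 0.05), and from 0 to 32 lower and from 0 to 6 higher with each library left out. The cause was not tested. Both counts were 0 without Mock replicate 3 and without HIF-1α-KD replicate 2 (1442 and 1070 genes at an unadjusted p-value under 0.05). The count of the 10 genes at an unadjusted p-value under 0.05 was 3, and from 1 to 4 with each library left out. It stayed at 3 with library size scaling, which moved the median of all genes to 0.077, but Atf5 took the place of Cebpb. Directions that reversed were those of Atf4 without Mock replicate 2 (-0.063) and without HIF-1α-KD replicate 3 (-0.017), of Ddit3 without Mock replicate 3 (0.084) and without HIF-1α-KD replicate 1 (0.017), and of Trib3 without Mock replicate 2 (-0.13). With each library left out, Atf4 ran from -0.063 to 0.15, Ddit3 from -0.52 to 0.084 and Trib3 from -0.13 to 0.38. Leaving out a library leaves 2 in its group. Replicate numbers were not taken as pairs: the deviations of same-numbered libraries from their group means correlated at -0.139, -0.123 and 0.0228 across genes. With the replicate block the 3 genes at an unadjusted p-value under 0.05 were again Ddit4, Sesn2 and Cebpb.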
